A study of Mus musculus with 12 samples.

Results

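H3K4me1 was compared between crypts and villi of the mouse small intestine through the peak lists called on 1 library of each compartment. Every peak of both lists was taken, 54642 from crypts and 55341 from villi, which together make 109983 of the 169072 peaks in the 8 lists used here. The series holds 12 ChIP-Rx libraries, in which chromatin of either compartment, supplemented with Drosophila chromatin, was immunoprecipitated with antibodies against modified histone H3 or kept as input. It addresses the clipping of histone tails in the gut epithelium and where modified H3 lies in the genome of each compartment. Villi, which carry the differentiated absorptive cells, were scraped from the opened intestine with glass coverslips. Crypts, which house stem, progenitor and Paneth cells, were then freed mechanically from the remaining tissue after incubation in EDTA. No allele or treatment is named for these libraries, and strain, age and sex of the mice and the number pooled per library are not given in the sources used here. The lists hold positions on mm10 and a score but no read counts, which leaves the sequencing depth unknown. With 1 library per group no difference between compartments has a replicate check. The 95% Wilson intervals given here account for counting error alone, and peaks close together are not independent of each other. A peak missing from a bulk list cannot be assigned, since fewer cells that carry the mark and less of the mark per cell cannot be told apart.

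Monomethylation of lysine 4 of histone H3 is deposited mainly by the MLL3 and MLL4 methyltransferases. It marks enhancers, both active and primed, and flanks active promoters, whose start sites carry H3K4me3 instead. In the gut, enhancers bound by factors such as HNF4A, CDX2 and GATA4 are used in crypts and villi alike, and epithelial cells mature as they move from the crypt base, where Wnt signalling is high, towards the villus tip. Epithelial marker genes carried H3K4me1 to different extents, where 14386 of all 20698 autosomal protein-coding genes had a peak assigned in crypts and 14350 in villi. All 17 autosomal genes of an enterocyte and brush border list and all 19 of an intestinal stem cell list had at least 1 peak in crypts and in villi. Of 15 enteroendocrine genes 10 had a peak in crypts and 11 in villi, and of 10 Paneth genes 3 in either. Of 21 lymphocyte and myeloid genes, 11 had a peak in crypts and 10 in villi.

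On the autosomes, 44423 of 53933 crypts peaks overlapped a villi peak by at least 1 bp, which is 82.4% (82.0 to 82.7%), and 9510 or 17.6% had no counterpart and are called crypts-only. Of 54996 villi peaks, 45198 or 82.2% (81.9 to 82.5%) overlapped a crypts peak, and 9798 or 17.8% are called villi-only. Peaks that did not reach 1 kb around the start site of a protein-coding transcript are called distal. There were 6871 distal crypts-only and 8118 distal villi-only peaks.

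The 300 bp at the centre of distal peaks were read from the RefSeq sequence of GRCm38.p6, the assembly that mm10 names, and searched on both strands for the letters of 8 motifs of intestinal or general enhancer factors. The letters searched were CAAAGTCCA for HNF4A, TTTATNG for CDX2, CTTTGAT for TCF/LEF, AGATAA for the GATA factors, TGTTTAC for FOXA, TGANTCA for AP-1, GGGTGTGG for KLF and CCGGAAGT for ETS, where N is any base. None of them contains another, although matches may overlap. The sequences are the highest-scoring crypts-only window with the GATA letters, the highest-scoring villi-only window with the AP-1 letters, the highest-scoring window with the HNF4A letters in each of the crypts-only, villi-only and shared groups, and the highest-scoring distal villi-only peak at Gda. Each is the forward strand of GRCm38.p6 in lower case, with matches to any of the 8 motifs in capitals.
crypts-only, outside genes, near Hnrnpr, chr4:136302567-136302866: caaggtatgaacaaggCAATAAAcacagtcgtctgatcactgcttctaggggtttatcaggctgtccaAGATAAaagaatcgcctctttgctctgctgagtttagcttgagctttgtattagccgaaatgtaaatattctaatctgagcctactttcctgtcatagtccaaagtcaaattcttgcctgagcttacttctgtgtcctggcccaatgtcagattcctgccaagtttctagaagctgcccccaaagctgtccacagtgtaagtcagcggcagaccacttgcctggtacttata
crypts-only, outside genes, with Got2 as the nearest gene at 768381 bp, chr8:96656778-96657077: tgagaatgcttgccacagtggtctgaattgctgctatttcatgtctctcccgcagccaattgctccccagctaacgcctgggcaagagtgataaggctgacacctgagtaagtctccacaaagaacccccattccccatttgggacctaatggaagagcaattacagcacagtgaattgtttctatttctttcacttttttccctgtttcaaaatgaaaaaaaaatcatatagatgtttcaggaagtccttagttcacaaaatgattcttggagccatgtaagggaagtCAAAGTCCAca
villi-only, in an intron, near Chtf8, chr8:106888881-106889180: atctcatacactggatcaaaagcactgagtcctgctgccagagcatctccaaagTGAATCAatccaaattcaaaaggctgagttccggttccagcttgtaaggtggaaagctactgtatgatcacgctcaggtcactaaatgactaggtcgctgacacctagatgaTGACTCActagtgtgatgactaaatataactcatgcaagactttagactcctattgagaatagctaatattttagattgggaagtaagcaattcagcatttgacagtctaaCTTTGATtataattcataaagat
villi-only, in an exon, near Mmel1, chr4:154885402-154885701: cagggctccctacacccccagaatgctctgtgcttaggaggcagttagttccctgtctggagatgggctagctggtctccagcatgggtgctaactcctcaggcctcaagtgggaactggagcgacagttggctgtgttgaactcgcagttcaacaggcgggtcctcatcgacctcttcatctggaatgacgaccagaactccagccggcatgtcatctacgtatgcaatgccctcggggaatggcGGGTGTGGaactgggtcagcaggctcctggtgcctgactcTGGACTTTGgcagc
shared, in an exon, near Lhfpl2, chr13:94191882-94192181: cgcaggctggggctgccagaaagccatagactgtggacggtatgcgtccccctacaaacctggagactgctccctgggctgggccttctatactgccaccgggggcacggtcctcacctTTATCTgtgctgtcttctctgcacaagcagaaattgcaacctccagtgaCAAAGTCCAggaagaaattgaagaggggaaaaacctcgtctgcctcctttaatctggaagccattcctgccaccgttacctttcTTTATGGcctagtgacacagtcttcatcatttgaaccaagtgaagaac
villi-only, in an intron, near Gda, chr19:21469142-21469441: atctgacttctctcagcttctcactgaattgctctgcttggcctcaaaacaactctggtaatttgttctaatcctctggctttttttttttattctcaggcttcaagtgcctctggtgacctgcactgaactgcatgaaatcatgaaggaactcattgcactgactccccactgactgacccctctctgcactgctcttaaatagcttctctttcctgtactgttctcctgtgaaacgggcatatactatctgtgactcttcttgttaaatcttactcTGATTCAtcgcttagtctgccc

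The letters of the hepatocyte nuclear factor HNF4A, a nuclear receptor of gut and liver epithelium, were in 1.79% (1.5 to 2.13%) of distal crypts-only and 2.03% (1.75 to 2.36%) of distal villi-only windows. Shared distal peaks held them in 1.80% of crypts and 1.54% of villi windows, and evenly spaced genome windows without a start site in 0.380%. All 4 groups of peaks thus exceeded the genome share, and the intervals of crypts-only and villi-only overlapped. A similar order held for the KLF letters, present in 5.17% of crypts-only, 5.17% of villi-only and 1.78% of genome windows.

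The GATA letters separated the groups. They were in 1601 of 6871 crypts-only windows, 23.3% (22.3 to 24.3%), and in 1489 of 8118 villi-only windows, 18.3% (17.5 to 19.2%), against 19.7% and 19.3% of shared windows and 19.3% of genome windows. The letters of AP-1, the dimer of FOS and JUN proteins, went the other way, with 9.94% (9.26 to 10.7%) in crypts-only and 13.6% (12.9 to 14.4%) in villi-only windows, 11.6% and 10.8% in shared windows and 8.90% in the genome. FOXA letters were in 6.35% of crypts-only and 4.58% of villi-only windows, the villi-only value being near the genome share of 4.56%. The CDX2 letters were in 19.2% of crypts-only and 15.99% of villi-only windows, beside 18.5% of genome windows, and those of TCF/LEF, the effectors of Wnt signalling, in 6.46% and 5.63%, beside 6.17%. ETS letters were rare, at 0.451% and 0.468%. Base composition also differed between the groups. The median GC content was 45.7% in crypts-only, 47.3% in villi-only, 46.7% in both shared groups and 41.7% in genome windows. The part of base composition in the motif shares was not tested, and a match is no evidence of binding.

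Peaks without a counterpart were narrow and low-scoring. The median width of crypts-only peaks was 785 bp and that of villi-only peaks 809 bp, whereas shared peaks were wider, with medians of 1523 and 1473 bp. The score, taken as the authors' −log10 p-value, had a median of 13.6 for crypts-only and 12.4 for villi-only peaks and of 22.2 and 19.5 for shared ones. Of the crypts-only peaks, 13.7% ranked in the top 50% of their list, and of the villi-only peaks 13.9%. With each list cut by score into 10 bins of like size, sharing fell from 99.9% in the highest crypts bin to 52.2% in the lowest, and from 99.6% to 51.8% in villi. It rose with width, from 43.2% of crypts and 50.7% of villi peaks of up to 500 bp to 99.9% and 99.6% of those over 5000 bp. The nearest peak of the other compartment lay at a median of 4226 bp from crypts-only and 4299 bp from villi-only peaks, and 18.5% and 17.3% of them had one within 1 kb. More than 50 kb separated 691 crypts-only and 581 villi-only peaks from the next peak of the other list. The autosomes differed little. Sharing ran from 80.5% on chromosome 6 to 84.6% on chromosome 8 in crypts and from 81.2% on chromosome 14 to 82.98% on chromosome 15 in villi. The X chromosome, kept out of the groups, stood apart with 706 crypts peaks, 34.4% of them shared, and 344 villi peaks, 74.7% of them shared.

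**Figure D1:**
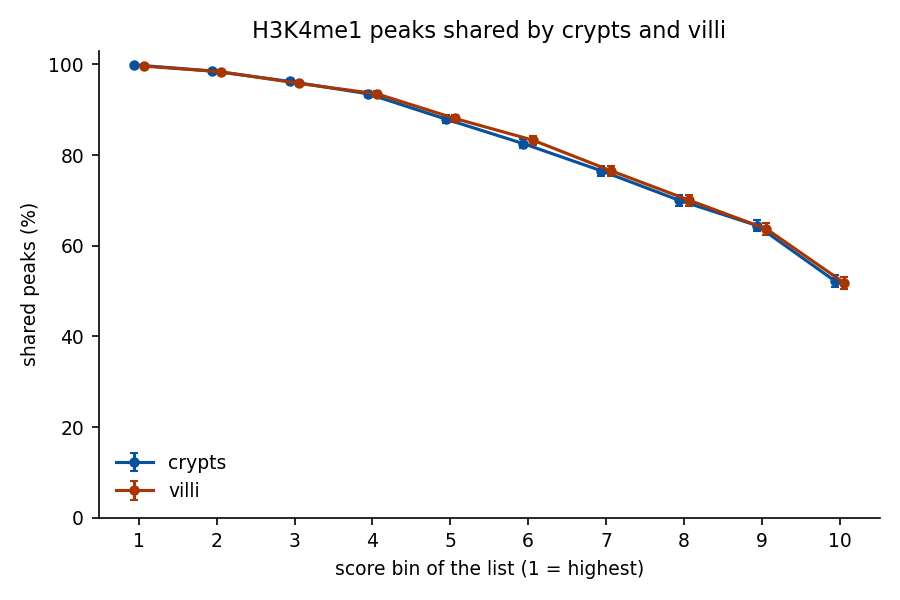
Share of autosomal H3K4me1 peaks that overlap a peak of the other compartment (%), by score bin (10 bins of each list, highest first), with 95% Wilson intervals as bars. Crypts and villi lie almost on 1 line, which falls from above 99% in the highest bin to near 52% in the lowest.

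Where 1 crypts peak met 1 villi peak, the widths were alike. Over 38398 such pairs the median log2 ratio of widths, villi over crypts, was -0.0049 (quartiles -0.27 and 0.25). The villi peak was at least 2-fold wider in 3.66% of pairs and the crypts peak in 3.86%. By class, the median was 0.03 for introns, where 5.04% of pairs were 2-fold wider in villi and 4.02% in crypts, and -0.05 outside genes, where the shares were 3.04% and 4.81%.

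The peaks without a counterpart differed in genomic class between the compartments. Promoters, taken as peaks that reach 1 kb around a protein-coding start site, made up 27.7% (26.9 to 28.7%) of crypts-only peaks but 17.1% (16.4 to 17.9%) of villi-only peaks, whereas shared peaks were at promoters in 31.9% of crypts and 30.8% of villi. The order of crypts-only and shared crypts peaks turned when the midpoint had to lie within 1 kb of a start site, with 22.7% against 19.2%, and among the 50% of peaks with the highest scores, with 38.3% against 31.3%. Introns took the reverse order, with 33.5% (32.5 to 34.4%) of crypts-only and 47.1% (46.1 to 48.1%) of villi-only peaks, beside 34.6% and 35.2% of shared ones. Outside protein-coding genes lay 36.6% of crypts-only and 32.1% of villi-only peaks, and in exons 2.20% and 3.65%. For genome windows of 1500 bp the shares were 4.25% for promoters, 2.32% for exons, 36.0% for introns and 57.5% outside genes. Among distal peaks alone, 46.3% (45.1 to 47.5%) of crypts-only and 56.9% (55.8 to 58.0%) of villi-only peaks were in introns, on either side of the 50.8% found for shared distal peaks of both compartments.

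The lower promoter share of villi-only peaks held at like scores. By midpoint within 1 kb of a start site the gap was smaller, with 14.7% of villi-only against 18.9% of shared villi peaks. The part of peak width in the promoter share was not tested. In score bin 7 of the villi list, promoters made up 18.5% of 1288 villi-only and 31.6% of 4208 shared peaks. In the same bin of the crypts list they made up 32.9% of 1263 crypts-only and 35.6% of 4117 shared peaks. Villi-only peaks were below shared peaks in each of the 10 bins, and crypts-only peaks were below them in 6 of 10.

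**Figure D2:**
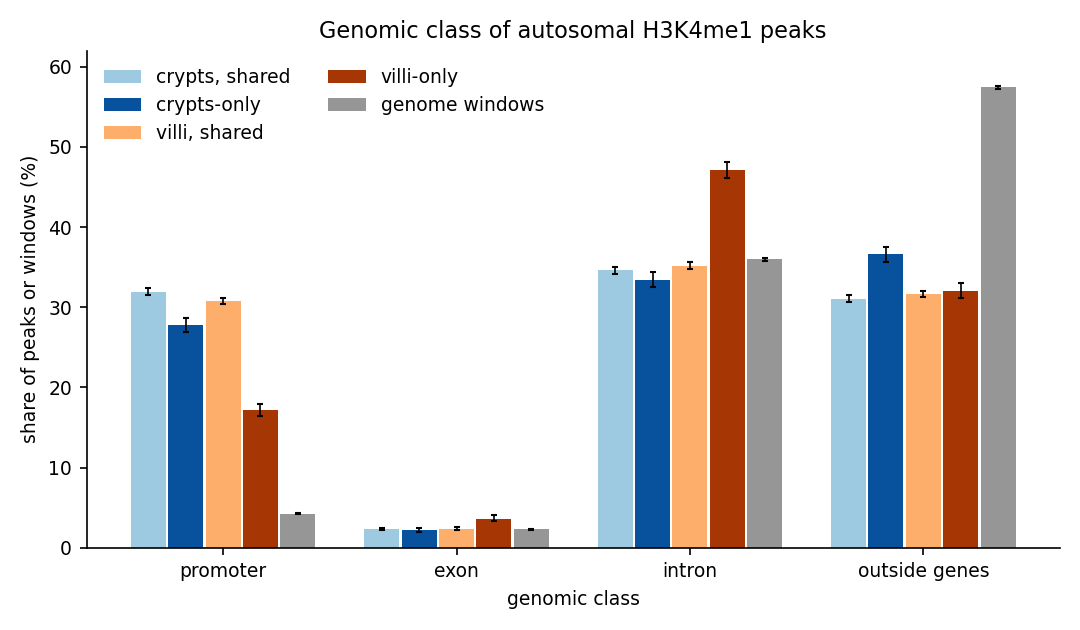
Share (%) of shared, crypts-only and villi-only autosomal H3K4me1 peaks and of genome windows in each genomic class, with 95% Wilson intervals. Villi-only peaks are lowest of the 4 peak groups at promoters (17.1%) and highest in introns (47.1%).

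The distance to start sites followed. From the midpoint of a peak to the nearest protein-coding start site, the median was 8717 bp for shared crypts peaks, 8997 bp for shared villi peaks, 12232 bp for crypts-only and 13152 bp for villi-only peaks, and 56276 bp for genome windows. Crypts-only peaks were split between near and far positions. Within 1 kb lay 22.7% of crypts-only and 14.6% of villi-only peaks, and beyond 100 kb 11.5% and 8.26%. Villi-only peaks were more frequent at 5 to 10 kb, with 14.2% against 8.97%, and at 10 to 50 kb, with 38.1% against 31.5%. At 1 to 5 kb, a zone that took 22.0% and 21.7% of shared peaks, both groups fell to 14.5% and 14.7%. Distal peaks alone had medians of 25353 bp for crypts-only and 18521 bp for villi-only, on either side of the 19905 and 19762 bp of shared ones. Upstream of their nearest start site were 47.9% of distal crypts-only and 41.1% of distal villi-only peaks.

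**Figure D3:**
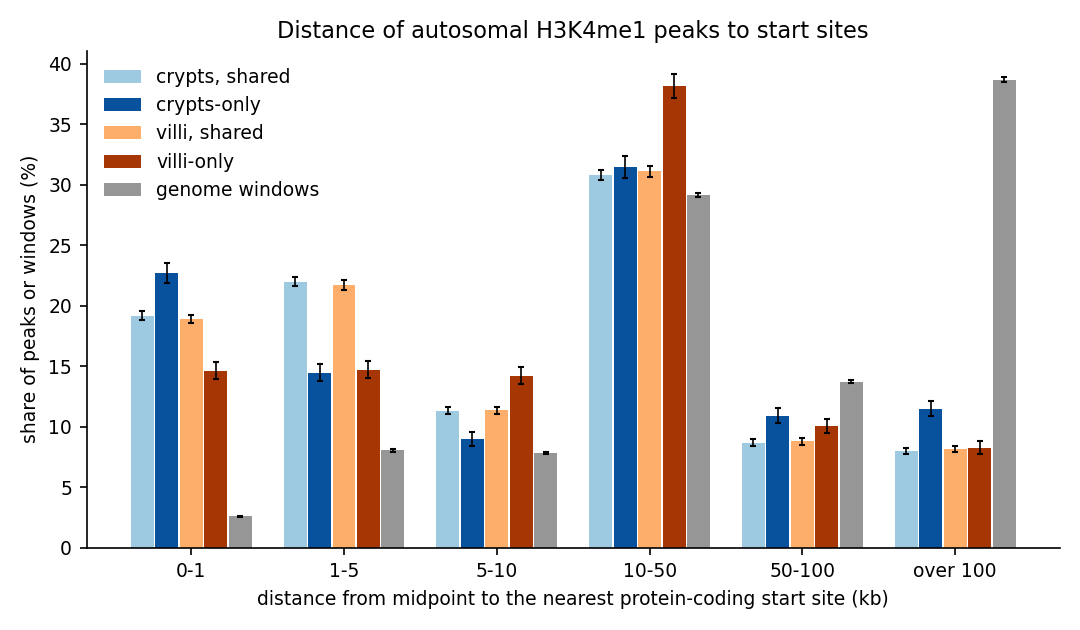
Share (%) of autosomal H3K4me1 peaks and genome windows by distance (kb) from the midpoint to the nearest protein-coding start site, with 95% Wilson intervals. Villi-only peaks peak at 10 to 50 kb (38.1%), whereas crypts-only peaks exceed them within 1 kb (22.7% against 14.6%) and beyond 100 kb (11.5% against 8.26%).

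Promoter peaks without a counterpart stood in different chromatin in the 2 compartments. H3K4me3, the mark of active and poised start sites, was called in both compartments at 2248 of 2639 promoter crypts-only peaks, 85.2% (83.8 to 86.5%), and at 1048 of 1680 promoter villi-only peaks, 62.4% (60.0 to 64.7%). It was called in neither at 11.9% of the former and 32.4% of the latter. Of shared promoter peaks, 87.4% in crypts and 86.8% in villi overlapped H3K4me3 of their own compartment. The like shares were 87.6% for promoter crypts-only and 66.0% for promoter villi-only peaks. H3K27me3, the mark of Polycomb repression, overlapped 4.47% (3.75 to 5.33%) of promoter crypts-only peaks in crypts and 23.5% (21.5 to 25.5%) of promoter villi-only peaks in villi, beside 11.4% and 13.2% of shared promoter peaks. The villi list of H3K27me3 is the longer one, with 13797 peaks against 7611. Of the 394 promoter villi-only peaks with H3K27me3 in villi, 320 carried it in crypts too. The part of the list lengths in these shares was not tested. Only 17.5% of promoter crypts-only peaks covered a start site itself, against 33.4% of promoter villi-only and 33.4% and 35.5% of shared promoter peaks. In all 4 groups most promoter peaks thus lay beside a start site and not over it. Their median widths were 679, 706, 1309 and 1326 bp in that order.

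Distal peaks carried these marks less often. H3K4me3 of the own compartment overlapped 7.06% of distal crypts-only and 3.24% of distal villi-only peaks, against 14.5% and 15.8% of shared distal peaks. H3K27me3 overlapped 1.53% of distal crypts-only and 4.42% of distal villi-only peaks, against 2.71% and 3.37% of shared distal peaks and 0.848% and 1.74% of distal genome windows. H3K9me3 of the own compartment, a mark of constitutive heterochromatin, overlapped 10 distal crypts-only (0.146%) and 18 distal villi-only peaks (0.222%), beside 0.230% and 0.218% of distal genome windows.

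Counted by gene, 12460 promoters carried H3K4me1 in crypts and 12156 in villi, and 1138 did so in crypts only and 834 in villi only. H3K4me3 was at the promoter in both compartments for 951 of the 1138 and for 467 of the 834. In only 22 and 36 genes was H3K4me3 likewise confined to the compartment with H3K4me1. The 5 of these with the highest H3K4me1 score in crypts were Ern2, which encodes the endoplasmic reticulum stress sensor IRE1β of mucus-secreting cells (score 27.6), 1700066B19Rik (24.0), Atoh7 (18.8), the DNA repair gene Mgmt (18.6) and the ion transport regulator Fxyd3 (17.8). In villi they were Sox2, a transcription factor of foregut and neural progenitors (28.7), 2410004P03Rik (23.5), Lrrc75b (22.7), Hdgfl3 (22.5) and Tmem130 (21.6). At the promoters of Sox2, 2410004P03Rik, Lrrc75b and Hdgfl3 H3K27me3 was called in both compartments, at Tmem130 in villi, and of the 5 crypts genes at Atoh7 alone. H3K27me3 was called at 101 of the 1138 promoters in crypts, and at 328 of the 834 in villi, 60 of which lacked it in crypts. Of genome windows at promoters, 9.54% overlapped H3K27me3 in crypts and 12.1% in villi, and 36.5% and 36.4% overlapped H3K4me3. A window is a smaller unit than a gene, whose start sites were all counted, so these shares are no direct background for the gene counts.

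Peaks were next assigned to the protein-coding gene with the nearest start site, up to 100 kb away. Of 20698 autosomal genes, 3877 or 18.7% had more crypts-only than villi-only peaks and 4126 or 19.9% more villi-only than crypts-only peaks, and the rest had equal numbers, mostly none. These shares are the background for the gene lists. They are not matched for the number of peaks. Of all genes, 11599 had no peak without a counterpart, and genes with many peaks have more room to differ. The intestinal stem cell list leaned to crypts, with 12 of 19 members (63.2%) that had more crypts-only and 3 (15.8%) that had more villi-only peaks, and 42 crypts-only against 12 villi-only peaks in sum. When both peaks had to overlap by 50% of their length to be shared, the numbers were 7 and 4. Its members had a median of 8 peaks in crypts and 6 in villi, where the median over all genes was 1 in both.

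Znrf3, a ubiquitin ligase that removes Wnt receptors from the cell surface, had 6 crypts-only and no villi-only peaks, and the peaks assigned to it covered 16565 bp in crypts but 3566 bp in villi. Slc12a2, the basolateral sodium, potassium and chloride cotransporter of crypt cells, had 5 crypts-only and no villi-only peaks and 20077 bp against 4097 bp. For Sox9, a transcription factor of the crypt base, the numbers were 5 and 0, with 20919 bp in crypts and 13641 bp in villi. Axin2, a feedback inhibitor of the Wnt pathway, had 5 crypts-only peaks and 1 villi-only peak and 32663 bp against 24118 bp. These 4 genes were named for their excess of crypts-only peaks, which is therefore a description. The standard stem cell markers Lgr5 and Olfm4 are outside the naming rule. Olfm4 had 2 crypts-only peaks and 1 villi-only peak, and 25110 bp against 12421 bp. Lgr5, a receptor for R-spondins, had 1 of each and 4363 bp against 3912 bp by assigned peaks, but over the gene and 20 kb on either side peaks covered 12236 bp in crypts and 5503 bp in villi. At Olfm4 that stretch held 22052 bp against 9358 bp, at Znrf3 24974 against 10724 bp and at Slc12a2 11119 against 3152 bp. The difference was small at Axin2, with 18368 against 18139 bp, and at Sox9, with 6378 against 5767 bp.

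Lists of absorptive function leaned to villi. Among 16 genes of lipid absorption, 10 (62.5%) had more villi-only and 1 more crypts-only peaks, with 21 villi-only against 7 crypts-only peaks in sum. Among 16 nutrient and ion transporters the numbers were 9 (56.3%) and 2, with sums of 34 and 15 (8 and 6 members under the 50% overlap), and among 17 enterocyte and brush border genes 7 (41.2%) and 2, with sums of 20 and 8 (1 and 1 by bases covered over the gene and 20 kb on either side). The median of peaks per member was 4 in crypts and 5 in villi for lipid absorption, 6.5 and 8 for transporters and 5 and 6 for enterocyte genes. For lipid absorption the median length covered by assigned peaks had the reverse order, at 11173 bp for crypts and 10492 bp for villi.

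Slc15a1, the apical transporter of di- and tripeptides, had 7 villi-only and no crypts-only peaks, and 31220 bp were covered in crypts and 46772 bp in villi. The meprin subunit gene Mep1b, a brush border protease, also had 7 villi-only and no crypts-only peaks, with 36887 bp against 45614 bp. Slc2a2, which encodes the glucose transporter GLUT2, and Slc3a1, the heavy chain of the cystine and dibasic amino acid transporter, had 3 villi-only and no crypts-only peaks each. Slc5a1, the sodium and glucose cotransporter SGLT1, had 5 villi-only and 2 crypts-only peaks. In lipid uptake, the fatty acid transport protein gene Slc27a4 had 3 villi-only and no crypts-only peaks (3022 bp in crypts and 8719 bp in villi), and the scavenger receptor gene Scarb1 had 4 and 1. Enpep, a brush border aminopeptidase, had 3 villi-only peaks and 1 crypts-only peak, with 24087 bp in crypts and 24665 bp in villi. Over Enpep and 20 kb on either side, cover was higher in crypts, with 15801 against 11911 bp. Mttp, which loads lipid onto apolipoprotein B, was the 1 lipid gene on the crypts side, with 3 crypts-only and no villi-only peaks and 15903 bp against 11042 bp.

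Proliferation genes showed few differences. Of 27 cell cycle and DNA replication genes, 19 had equal numbers, 6 (22.2%) more crypts-only and 2 (7.41%) more villi-only peaks. Most of the 21 crypts-only peaks were at 3 members. The proto-oncogene Myc had 6 crypts-only and 2 villi-only peaks (18429 bp in crypts and 9379 bp in villi), Cdk6, a kinase of the G1 phase, had 5 and 1, and its partner cyclin gene Ccnd1 had 3 and 0. Over the gene and 20 kb on either side the order turned at Myc, with 1710 bp in crypts and 4011 bp in villi. It also turned at Ccnd1, with 5987 and 7508 bp, but not at Cdk6, with 19454 and 17267 bp.

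Signalling and transcription factor lists were mixed. In the Wnt list of 18 genes, 5 had more crypts-only and 7 more villi-only peaks. Its receptor genes Fzd7 and Lgr4 had 3 crypts-only and no villi-only peaks each, and Fzd5 had 3 and 1, whereas Apc, the scaffold that promotes β-catenin degradation, had 2 and 4. Of 12 Notch genes, 5 (41.7%) had more crypts-only and 1 more villi-only peaks, among them the ligand gene Jag1 with 3 and 0 and the receptor gene Notch1 with 2 and 0. Of 12 BMP genes, 5 had more crypts-only and 3 more villi-only peaks. The inhibitory Smad genes were on the villi side, Smad7 with 5 villi-only peaks and 1 crypts-only peak and Smad6 with 3 and 0, while the ligand gene Bmp2 and the signal transducer gene Smad1 had 3 crypts-only and no villi-only peaks each. Among 21 intestinal transcription factors, 9 (42.9%) had more crypts-only and 5 (23.8%) more villi-only peaks. Gata6 had 9 crypts-only and 4 villi-only peaks and 44041 bp against 34831 bp. Klf4, a factor of differentiated epithelium, had the reverse, with 6 villi-only peaks and 1 crypts-only peak and 23360 bp against 29417 bp. Nr5a2, a nuclear receptor of crypt cells, had 4 crypts-only peaks and 1 villi-only peak. Under the 50% overlap the transcription factor and Notch lists turned to villi, with 9 against 6 and 5 against 4 members.

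Secretory and other cell types gave small numbers. Of 15 enteroendocrine genes, 5 had more villi-only peaks and 1 more crypts-only, led by Chga, the chromogranin gene of hormone granules, with 3 villi-only and no crypts-only peaks and 8796 bp in crypts against 14381 bp in villi. Of 10 goblet genes, 4 had more crypts-only and 3 more villi-only peaks. Atoh1, which directs cells to the secretory lineage, had 3 crypts-only and no villi-only peaks and 18118 bp against 9100 bp, and Spink4 had 2 and 0. Only 3 of 10 Paneth genes had any assigned peak in either compartment, and 1 of them, the lysozyme gene Lyz1, had a crypts-only peak. Of 9 tuft genes, 1 had more crypts-only peaks. Of 18 mesenchyme and endothelium genes, 6 had more crypts-only and 5 more villi-only peaks, among them the endothelial gene Pecam1 with 3 crypts-only and no villi-only peaks. The lymphocyte and myeloid list was split 3 and 3, and the list of 12 muscle and neural regulators 2 and 3. The part of non-epithelial cells in these differences was not tested.

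**Figure D4:**
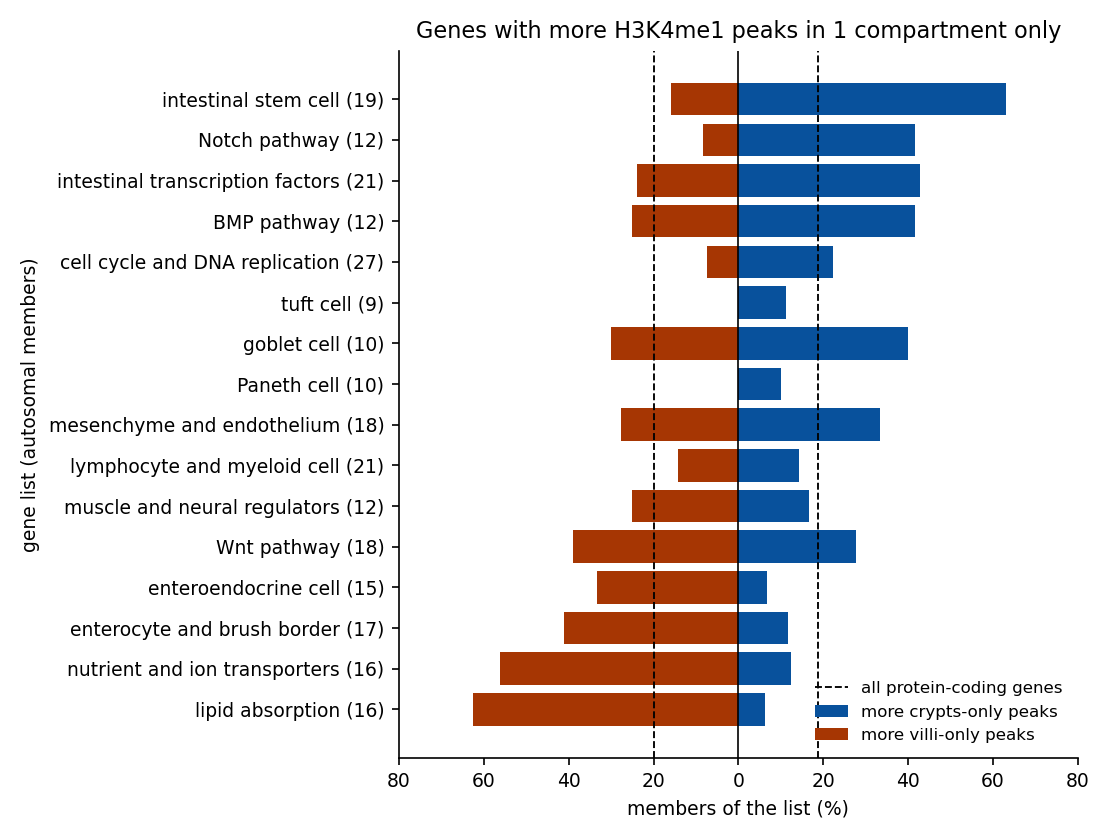
Share (%) of the autosomal members of 16 gene lists that had more crypts-only (right) or more villi-only (left) H3K4me1 peaks within 100 kb, with dashed lines at the shares of all protein-coding genes (18.7% and 19.9%). The stem cell list reaches furthest to the crypts side (63.2%) and lipid absorption furthest to the villi side (62.5%).

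A count by locus was added after the data were seen. Bases covered by peaks over a gene and 20 kb on either side were at least 1.5 times more in crypts for 1923 of 20698 genes (9.29%) and in villi for 1982 (9.58%). By this measure 8 of 19 stem cell genes (42.1%) were higher in crypts and none in villi, with a median of 16.2 kb covered in crypts and 9.45 kb in villi, where the median of all genes was 4.11 and 4.04 kb. Of the 16 lipid genes and the 16 transporters, 4 each (25.0%) were higher in villi and none in crypts, with medians of 15.8 against 19.5 kb and 15.4 against 19.8 kb. The villi share was higher for the muscle and neural regulators, with 4 of 12 (33.3%) and 1 in crypts. It was also higher for the enteroendocrine genes, with 4 of 15 (26.7%) and 1 in crypts. The muscle and neural list had the reverse order of medians, at 2.45 kb in crypts and 1.86 kb in villi. Its members Myf5, Olig2 and Pou3f2 had no covered bases in crypts and 496, 839 and 1779 bp in villi. More members were higher in crypts for lymphocyte and myeloid genes, with 4 of 21 and 2 in villi. The same held for tuft genes, with 2 of 9 and 1 in villi. Goblet genes with 2 of 10 and mesenchyme and endothelium genes with 2 of 18 had none in villi. The enterocyte list was even at 1 and 1 of 17, and 5 of 27 cell cycle genes were higher in crypts and 4 in villi.

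Over all genes, the largest excess of crypts-only peaks was at Ccdc192, with 9 crypts-only and no villi-only peaks, where peaks covered 26677 bp in crypts and 4776 bp in villi. The receptor phosphatase gene Ptprd followed with 11 and 3, Fam107b with 9 and 1, Arhgef28, a guanine nucleotide exchange factor gene, with 8 and 0, and Rapgef5, an exchange factor for Rap, with 10 and 2. The orphan nuclear receptor gene Esrrg had 8 and 0, Ccser1 10 and 2, the zinc finger gene Zbtb20 8 and 0, Far2, a fatty acyl-CoA reductase gene, 7 and 0, and Zfhx3 8 and 1. On the villi side, Prkag2, a regulatory subunit of AMP-activated kinase, had 14 villi-only peaks and 1 crypts-only peak, with 64858 bp covered in villi and 42017 bp in crypts. Iqgap2, a scaffold of cell junctions, had 10 villi-only and 0 crypts-only peaks, Shroom3, which constricts the apical surface, 11 and 1, the septin gene Sept9 9 and 0, Mical3 9 and 0, Nckap5 8 and 0, Dock5, an exchange factor for Rac, 7 and 0, and the coronin gene Coro2b 7 and 0. Gda, the guanine deaminase gene, and Slc15a1 completed the 10 genes with 7 and 0 each. Ties were broken by the summed width of the peaks, and Mep1b and Myo1e in villi and Chrm3 in crypts, with 7 and 0 as well, came after the 10 genes. Genes with a long territory can gather more peaks, and no adjustment for length was made.

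Some peaks without a counterpart came in runs, in which no shared peak of the same list intervened. Most stretches held a single such peak, 6075 of 7577 in crypts and 6367 of 7881 in villi. There were 334 runs of at least 3 peaks in crypts and 326 in villi. They held 1099 of the 9510 crypts-only and 1055 of the 9798 villi-only peaks. Whether scattered peaks would give as many runs was not tested. The longest run had 7 peaks in either compartment. In crypts it lay at Chrm3, the gene of the M3 acetylcholine receptor, over 88998 bp (chromosome 13, 10355136 to 10444133 on mm10), followed by runs of 6 at Vwa8 and Zfp957, at Svil, Zfp438, Zeb1 and Arhgap12, and at Zfhx3, and of 5 at Ccdc192. In villi it lay over 38230 bp of Gda (chromosome 19, 21436121 to 21474350), where the 7 peaks covered 16959 bp from the promoter into the gene. The next villi runs had 6 peaks at Osbpl3 and at Ube2q1, She and Il6ra, and 5 at Smim4 and at a zinc finger gene cluster with Rslcan18 and Zfp759. At Gda the crypts list had no promoter peak although H3K4me3 was called at the promoter in both compartments.

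**Figure D5:**
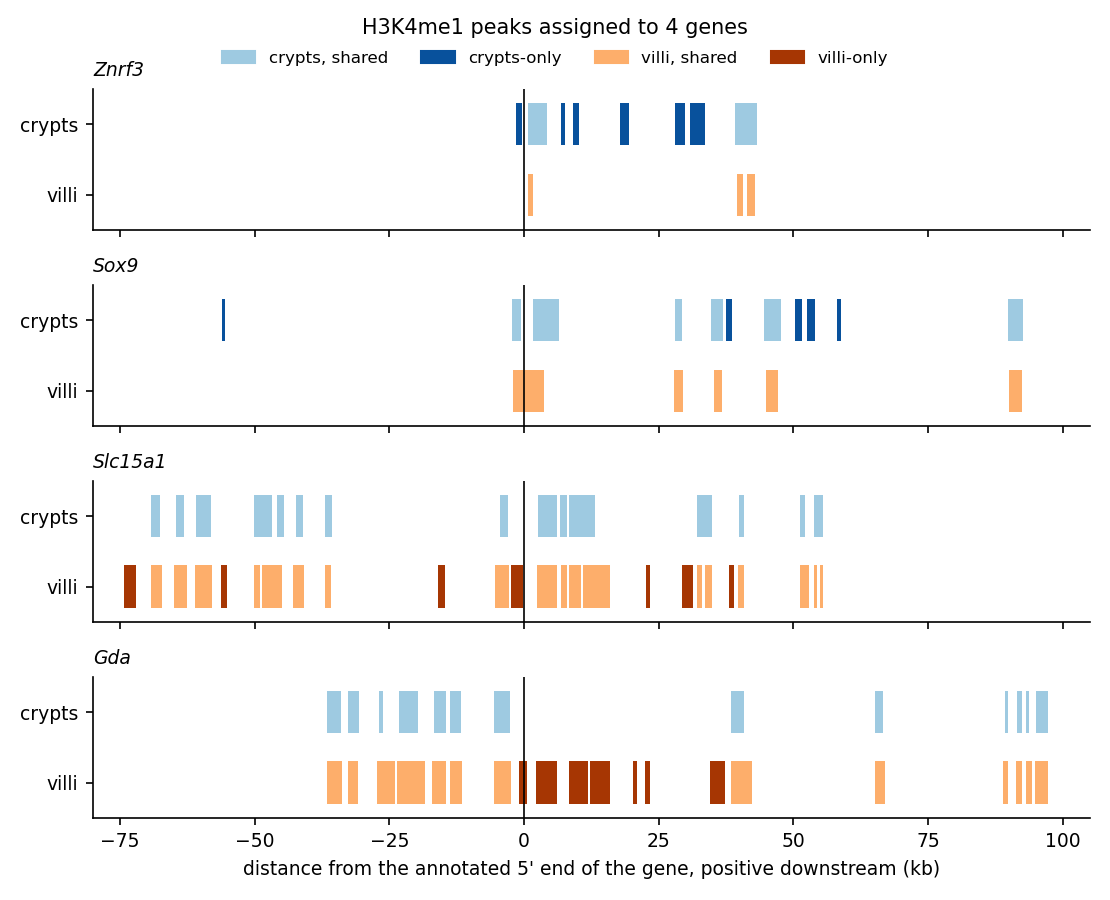
H3K4me1 peaks assigned to Znrf3, Sox9, Slc15a1 and Gda, drawn to scale by distance (kb) from the annotated 5' end of each gene, with crypts above villi and the peaks without a counterpart in dark colour. Znrf3 and Sox9 have 6 and 5 dark crypts peaks and none in villi, and Slc15a1 and Gda have 7 dark villi peaks each and none in crypts.

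Few single distal peaks were strong in 1 compartment and absent from the other. The highest-scoring distal crypts-only peak lay outside genes, 8225 bp upstream of Hnrnpr, a gene of an RNA-binding protein (score 44.9, width 2090 bp), and ranked 3806 in its list. The next were in an intron 7500 bp downstream of a start of Ahr, the aryl hydrocarbon receptor gene (41.4), in an exon 130062 bp from the nearest start, that of Lrrc28 (40.6), 9293 bp downstream of the start of Mycl (39.9) and 8232 bp upstream of Lrch1 (38.9). The highest-scoring distal villi-only peak was in an intron 13501 bp into Bmp1, a gene of a procollagen protease (score 42.4, width 3613 bp), and ranked 1494 in its list. It was followed by a peak 27922 bp from the start of Wdr45b (41.7), by intron peaks 8091 bp into Bach1, a haem-regulated repressor gene (37.1), and near Ptprj (36.9), and by one of 4513 bp assigned to Tbc1d1 (36.3). None of these 10 peaks overlapped H3K4me3 or H3K27me3 of either compartment. The Bach1 peak was 69 bp from a crypts peak, so its call as villi-only rests on the 1 bp rule, whereas the Wdr45b peak was 25053 bp from the nearest one.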

How the data were processed

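Reads were mapped by the authors to mouse (mm10) and fly with Bowtie 1.1.2 and freed of duplicates with samblaster, and MACS2 2.1.1 was run per library. These versions, and deepTools 3.1, are named in the submitters' processing notes. File names pair a list with its compartment's input, but whether that input served as control is not given in the sources used here. Gaps in the peak numbers show that the lists were shortened after numbering, by a step that is not named. No pooling is stated. The score of a peak was taken as the −log10 p-value that the authors deposited, which was 10.0 or more. On that scale 10.0 is also the p-value threshold that the paper gives for calling these peaks, although a q-value is possible. The score was used only to rank peaks within a list. Peak calls are not scaled by the spike-in.

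Peaks were handled with Python 3.11.15, NumPy 2.4.6 and pandas 2.3.3, and figures drawn with Matplotlib 3.10.9. Of the 12 libraries, 8 lists were used. The H3K9me2 lists, the inputs and the signal tracks were not used here. Start sites (52086, of 20698 autosomal protein-coding genes) came from GENCODE M21 on GRCm38. Peaks off promoters were classed by midpoint as exon, intron or outside protein-coding genes. The genome windows are 239557 stretches of 1500 bp, 1 every 10 kb of the autosomes. Simulated peaks with known answers were used to test the code.

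Members, gene lists, motifs and rules were chosen with earlier results of these data known. Named genes are, up to 4 a list, those with the largest difference in peaks without a counterpart, the 10 genes with the largest excess either way (ties by summed width), and the nearest genes of the 5 highest-scoring distal peaks and of the 5 longest runs. The 5 highest-scoring promoters with H3K4me1 and H3K4me3 in the same compartment only were also named. Lgr5 and Olfm4 were added. Genes off the autosomes were left out, and some items, 1 of the 9 motifs searched among them, are not reported here. Alternatives covered the overlap rule, the score, merging, the promoter window, the annotation, the assignment limit, the window for motifs and all chromosomes.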

Additional observations from a re-analysis of the deposited data

How the results depend on the processing

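No paired analysis was possible because each compartment has 1 library and leaving out a replicate would leave none. Depth is unknown, and the cause of the shifts was not tested. The shared share of crypts and villi peaks was 68.7% and 67.4% when both peaks had to overlap by 50%, 85.6% and 85.3% with a peak of the other compartment within 1 kb, 95.2% and 95.1% for the top 50% by score against the whole other list, 71.8% and 72.0% for the top 50% of both lists, 83.7% and 83.1% with peaks under 1 kb apart merged, and 81.7% in crypts with all chromosomes. The promoter share of crypts-only and villi-only peaks was 38.3% and 31.2% with 5 kb around start sites, 22.7% and 14.7% by midpoint, 34.0% and 24.9% with start sites of all annotated genes and 38.3% and 24.6% in the top 50%. With the 50% overlap it was 20.3% in villi and within the interval in crypts. It was higher in crypts-only than in villi-only peaks, and the intron share higher in villi-only peaks, under all 6 settings.

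The distal median distance of crypts-only and villi-only peaks was 20902 bp and within its interval with the 50% overlap, 11262 and 9543 bp with all annotated genes, and 17323 bp for villi-only in the top 50%, and crypts-only was the larger under all 4 settings. At promoter crypts-only peaks H3K4me3 reached 90.7% within 1 kb and 72.3% with the top 50% of its list, and at villi-only ones 69.6% and 48.4%. H3K27me3 reached 5.46% and 3.03% at the former and 20.5% at the latter with the top 50%. In the central 600 bp the GATA letters were in 39.5% of crypts-only and 33.3% of villi-only distal peaks and the AP-1 letters in 18.7% and 24.1%. In the top 50% the GATA letters were in 24.8% of crypts-only and 17.6% of villi-only peaks. The AP-1 letters were there in 11.1% (9.12 to 13.5%) and 14.6% (12.6 to 16.9%), with overlapping intervals, and in 11.2% of shared crypts peaks. The order of the HNF4A shares changed, with 2.00% in crypts-only and 1.75% in villi-only in the top 50%.

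The count of genes on either side stayed within 1.5 times under each limit of assignment and overlap rule. Members with more crypts-only minus those with more villi-only peaks changed sign in 4 lists. The difference went from 1 to -3 for mesenchyme and endothelium with assignment up to 50 kb, from -2 to 1 for Wnt without an assignment limit, and under the 50% overlap from 4 to -1 for Notch and from 4 to -3 for intestinal transcription factors. Stem cell genes went from 12 and 3 to 7 and 4, and transporters from 2 and 9 to 6 and 8, under the 50% overlap.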
